A study of Mus musculus with 8 samples.

Results

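Keratins are the intermediate filament proteins of epithelia, and their genes were read here while mouse embryonic fibroblasts (MEFs) were reprogrammed to induced pluripotent stem cells (iPSCs). The members are the rows of the deposited expression table whose gene symbol is Krt followed by digits only, which gave 25 of 17922 rows. All 25 identifiers matched a current keratin symbol, and RefSeq lists 50 genes with names of this form, of which the others were not analysed here. The row called Krt83 in the table (ENSMUSG00000047641) is now named Krt87.

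A keratin filament is built from pairs of an acidic type I and a basic type II protein, so an epithelial cell normally makes members of both types. Simple, single-layered epithelia use Krt8 and Krt18 with Krt7, Krt19 or Krt20. The basal layer of stratified epithelia uses Krt5 and Krt14, and activated or wounded epidermis adds Krt6, Krt16 and Krt17. Root sheath and hair keratins belong to the hair follicle. Fibroblasts carry vimentin in place of keratins, while mouse pluripotent stem cells contain Krt8 and Krt18.

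The cells were C57BL/6 MEFs taken from fetuses on day 13.5 and carrying tetO-OSKM, a transgene for the factors OCT4, SOX2, KLF4 and MYC that doxycycline switches on, in every group, controls included. The 4 long RNA libraries are MEFs (day 0), cells on day 3 and on day 6 of induction with 2 ug/ml doxycycline, and fully reprogrammed iPSCs, with 1 library per group. The induction medium held serum replacement, LIF and 3 uM of CHIR99021, an inhibitor of GSK3. What the MEFs grew in beforehand is unstated, so effects of medium and of induction cannot be told apart between MEFs and later days. The medium and any doxycycline of the iPSCs are not given here, so the same limit holds for contrasts with iPSCs. The 4 small RNA samples of the series were not analysed here.

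Values are FPKM, which count fragments per length of gene and per size of library, so levels can be compared between genes. With 1 library per group there is no replicate check, and no error or test can be given for any difference. A gene was called higher or lower by a fixed rule of size, a difference of at least 1 on the log2(FPKM + 1) scale with the higher value at least 1 FPKM. In bulk libraries, fewer cells with a transcript and less transcript per cell cannot be told apart. All 10 fibroblast markers checked were at 1 FPKM or more in MEFs and lower in iPSCs by the rule, against 18.0% of all rows. All 10 pluripotency markers were higher in iPSCs than in MEFs, against 15.2% of all rows.

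Keratins as a whole were weak before the iPSC stage. The FPKM of the 25 members summed to 18.9 in MEFs, 23.2 on day 3, 33.1 on day 6 and 406 in iPSCs. Vimentin, encoded by Vim, alone stood at 3537, 3021, 2781 and 171 FPKM. The keratin sum was thus 0.00535 of the vimentin value in MEFs, 0.00767 on day 3, 0.0119 on day 6 and 2.38 in iPSCs. The sum exceeded vimentin in the iPSC library alone of the 4.

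Of the 25 members, 13 reached 1 FPKM in at least 1 library (52.0%, against 73.1% of all rows). A further 10 stayed under 0.1 FPKM in every library (40.0%, against 10.4% of all rows), and 2, Krt10 and Krt84, had their highest value between these bounds. None was listed at 0 in every library, while 12 were listed at 0 in at least 1. Of the 13 members at 1 FPKM or more, 3 were highest in MEFs, 1 on day 3, 3 on day 6 and 6 in iPSCs. The members stayed few at each stage, with 6 at 1 FPKM or more in MEFs, 5 on day 3, 9 on day 6 and 6 in iPSCs.

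**Figure D1:**
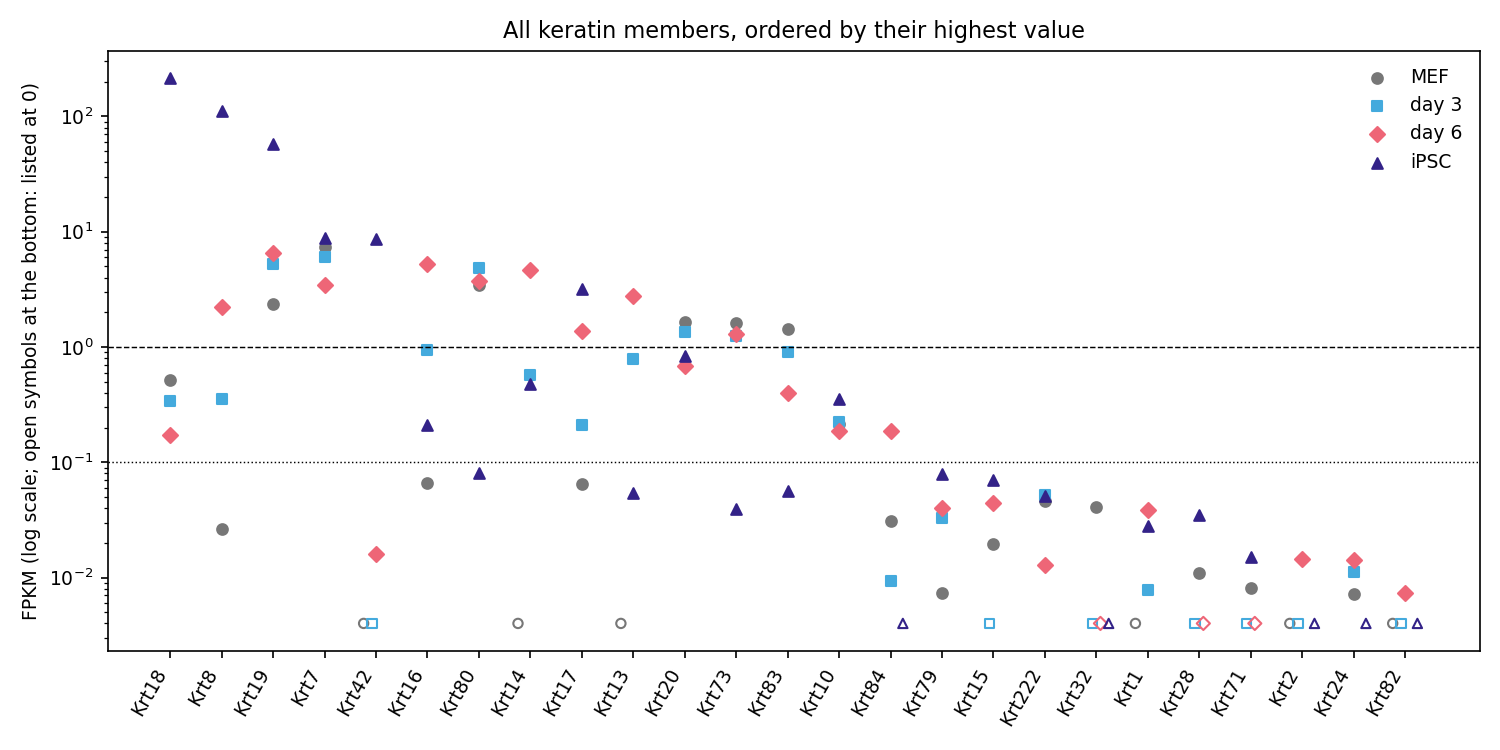
FPKM on a log axis (y) of all 25 keratin members (x, ordered by their highest value), with 1 symbol per library and open symbols at the bottom for values listed at 0. The dashed line is at 1 FPKM and the dotted line at 0.1 FPKM. The 3 highest points are the iPSC values of Krt18, Krt8 and Krt19, and the 10 members on the right lie under the dotted line in every library.

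By the rule, no member was higher or lower on day 3 than in MEFs, where 0.112% of all rows were higher and 0.0335% lower. On day 6, 4 members were higher than on day 3 and 0 lower, with 0.301% of all rows higher and 0.262% lower. Against MEFs, 6 were higher on day 6 and 0 lower (0.508% and 0.385% of all rows). In iPSCs, 5 were higher and 5 lower than on day 6 (14.8% and 16.9% of all rows), and 5 were higher and 3 lower than in MEFs (15.2% and 18.0%). The median difference over all 25 members lay between 0 and 0.0397 in these 5 contrasts, because many members were near 0 throughout. The median over all rows lay between -0.000471 and 0.

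The class that made up most of the keratin FPKM changed between stages. Simple epithelial keratins (5 members) held 63.1% of the sum in MEFs, 57.7% on day 3, 39.5% on day 6 and 96.7% in iPSCs. Stratified keratins (11 members) held 20.1%, 32.8%, 54.7% and 1.11%. In FPKM the simple class summed to 11.95 in MEFs, 13.4 on day 3, 13.1 on day 6 and 393 in iPSCs, so its sum was close to level up to day 6 while its share became smaller. The stratified class summed to 3.80, 7.60, 18.1 and 4.53 FPKM, so its sum in iPSCs was above that in MEFs. Krt80 made up 90.0% of this sum in MEFs and Krt17 made up 70.0% in iPSCs, so the sums of these libraries rest mostly on different genes. Day 6 was the only library of the 4 in which the stratified class was the larger. Root sheath keratins (3 members) went from 8.65% in MEFs to 0.0220% in iPSCs, and hair keratins (4 members) from 7.91% to 0.0138%. The hair share rests on Krt83 (now Krt87), which made up 95.2% of the hair sum in MEFs and 100% in iPSCs.

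**Figure D2:**
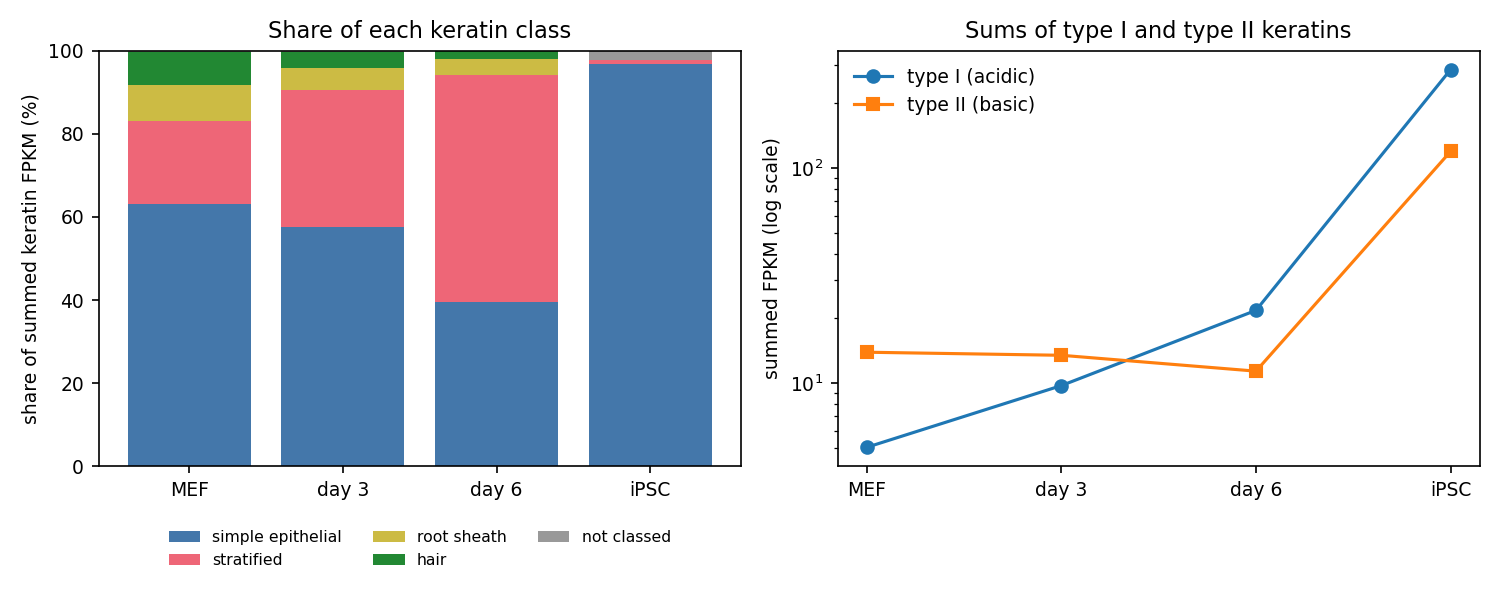
Left, share of the summed keratin FPKM (y, %) held by each keratin class in each library (x), with 1 bar per library. Right, summed FPKM on a log axis of the 14 type I and 11 type II members. Stratified keratins reach 54.7% on day 6 and simple epithelial keratins 96.7% in iPSCs, and the type I sum passes the type II sum between day 3 and day 6.

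Among the simple epithelial keratins, Krt8 and Krt18, which pair with each other in simple epithelia and are adjacent keratin genes in RefSeq order, did not move together before the iPSC stage. Type II Krt8 (ENSMUSG00000049382) was at 0.0263 FPKM in MEFs, 0.356 on day 3, 2.22 on day 6 and 110.3 in iPSCs. Type I Krt18 (ENSMUSG00000023043) was at 0.514, 0.340, 0.172 and 215 FPKM. Each step was thus upward for Krt8, while Krt18 had its lowest value on day 6.

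Krt8 was higher on day 6 than on day 3 by the rule, by 1.25 on the log2 scale. Krt18 was not called in any contrast before iPSCs, with a difference of -0.37 between day 6 and MEFs. The ratio of Krt18 to Krt8 FPKM was 19.5 in MEFs, 0.955 on day 3, 0.0775 on day 6 and 1.95 in iPSCs. In iPSCs the differences from day 6 were 5.11 for Krt8 and 7.53 for Krt18, and these genes ranked 576th and 270th of 17922 rows by FPKM. All of these ratios except that in iPSCs rest on at least 1 value under 1 FPKM.

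The windows around the RefSeq starts of this pair are shown because their genes were the highest keratins in iPSCs and differed up to day 6. Each runs 5′ to 3′ on the gene's strand, from 250 bases before the start to 50 bases from it, and capitals mark matches to any of 4 motifs searched on both strands. The motifs were TATAAA (the TATA box), TGANTCA (bound by AP-1 factors), GGGCGG (bound by SP factors) and CCACCC (bound by KLF factors).
Krt8, GRCm38.p6, chr15:102004293-102004592, minus strand: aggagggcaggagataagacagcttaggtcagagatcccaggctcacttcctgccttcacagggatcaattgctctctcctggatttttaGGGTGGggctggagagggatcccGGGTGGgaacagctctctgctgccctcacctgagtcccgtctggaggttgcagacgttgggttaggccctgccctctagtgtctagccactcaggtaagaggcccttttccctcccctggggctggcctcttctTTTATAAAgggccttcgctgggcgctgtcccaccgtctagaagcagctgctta
Krt18, GRCm38.p6, chr15:102027966-102028265, plus strand: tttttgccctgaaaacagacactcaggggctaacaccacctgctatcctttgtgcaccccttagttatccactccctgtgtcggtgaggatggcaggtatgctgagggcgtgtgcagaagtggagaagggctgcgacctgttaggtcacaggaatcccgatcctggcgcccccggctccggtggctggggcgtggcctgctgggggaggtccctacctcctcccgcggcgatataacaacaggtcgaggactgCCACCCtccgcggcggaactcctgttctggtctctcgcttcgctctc

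The Krt8 window held 2 matches of TATAAA, which overlap each other on opposite strands at the start, and 2 of CCACCC. The Krt18 window held 1 match of CCACCC, at bases 4 to 9 from the start, and no match of the other motifs. Over all 32851 windows of this length, 13.6% held TATAAA, 7.81% TGANTCA, 35.7% GGGCGG and 31.5% CCACCC. RefSeq windows were found for 17 of the 25 members, 18 windows in all. Of these 18, 9 held TATAAA, 2 TGANTCA, 1 GGGCGG and 8 CCACCC. No base in them belonged to matches of 2 different motifs. A match is a description of the sequence only.

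Krt19, a type I keratin that can pair with Krt8 or Krt7, was the strongest type I keratin up to day 6. Krt19 (ENSMUSG00000020911) was at 2.37 FPKM in MEFs, 5.24 on day 3, 6.57 on day 6 and 57.9 in iPSCs. The order of the values followed the order of the stages. The difference between day 3 and MEFs was 0.89 and lay just under the rule, that between day 6 and MEFs was 1.17, and that between iPSCs and MEFs was 4.13. On day 6 Krt19 was the highest of all members.

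Krt7, a type II keratin of glandular and ductal epithelia, was the strongest keratin of the MEF library. Krt7 (ENSMUSG00000023039) was at 7.37 FPKM in MEFs, 6.09 on day 3, 3.42 on day 6 and 8.83 in iPSCs. Its lowest value was on day 6, 0.92 below MEFs on the log2 scale and within the rule, and the iPSC value was 1.15 above day 6 and 0.23 above MEFs. In MEFs Krt7 made up 53.0% of the type II sum and 39.0% of the sum of all members.

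Krt20, a type I keratin of intestinal and urothelial cells, had the same order of values as Krt7 up to day 6. Krt20 (ENSMUSG00000035775) was at 1.66 FPKM in MEFs, 1.35 on day 3, 0.687 on day 6 and 0.843 in iPSCs. It was not called in any of the 5 contrasts. The simple class thus held 2 members that were higher on day 6 than in MEFs by the rule (Krt8 and Krt19) and 3 that were below their MEF value without a call (Krt7, Krt18 and Krt20).

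**Figure D3:**
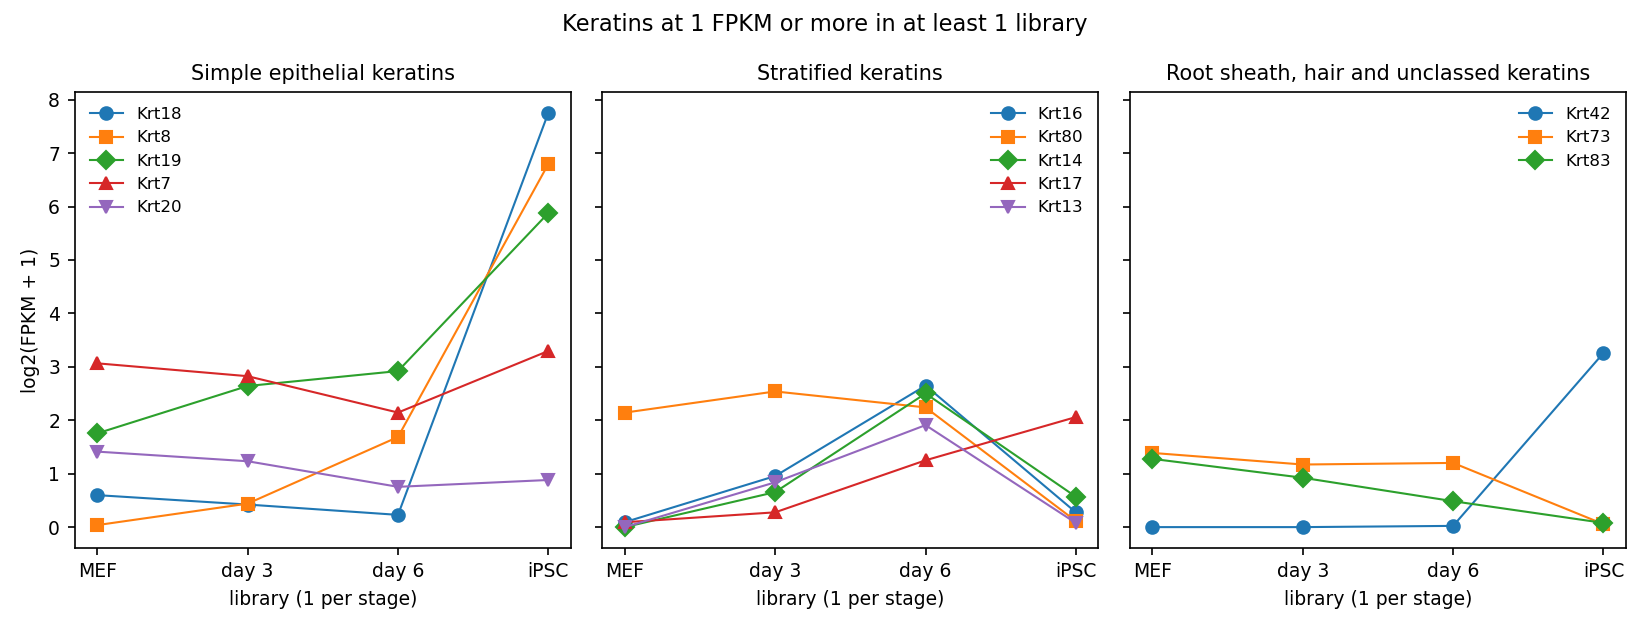
log2(FPKM + 1) (y) of the 13 keratins that reached 1 FPKM, in the 4 libraries (x, 1 per stage), in 3 panels by class, with lines that join the values of a gene. Krt18, Krt8 and Krt19 stand highest in iPSCs, Krt16, Krt14 and Krt13 peak on day 6, and Krt80, Krt73 and Krt83 are near 0 in iPSCs.

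Among the stratified keratins, Krt13, Krt14 and Krt16 were highest on day 6 and stood above both MEFs and iPSCs there by the rule. This held for 3 of 25 members (12%) and for 58 of 17922 rows (0.324%). Krt14 (ENSMUSG00000045545), the type I keratin of basal cells, was listed at 0 in MEFs and stood at 0.575 FPKM on day 3, 4.66 on day 6 and 0.482 in iPSCs. Krt16 (ENSMUSG00000053797), which marks activated epidermis, was at 0.0662, 0.939, 5.27 and 0.210 FPKM. Krt13 (ENSMUSG00000044041), the type I keratin of oral and oesophageal linings, was listed at 0 in MEFs and stood at 0.788, 2.76 and 0.0544 FPKM afterwards.

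In all of these genes day 3 lay between MEFs and day 6. The differences between day 6 and day 3 were 1.85 for Krt14, 1.69 for Krt16 and 1.07 for Krt13. Those between iPSCs and day 6 were -1.93, -2.37 and -1.83. The iPSC values were within 0.57 of the MEF values on the same scale.

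Krt17 (ENSMUSG00000035557), a type I keratin of wounded epidermis and hair follicles, had the same order up to day 6 and a higher value in iPSCs. It was at 0.0649 FPKM in MEFs, 0.211 on day 3, 1.38 on day 6 and 3.17 in iPSCs. The difference between day 6 and day 3 was 0.97, just under the rule, and the differences from MEFs were 1.16 on day 6 and 1.97 in iPSCs. Reads of Krt14, Krt16, Krt17 and Krt42 can be split between near-identical coding stretches, and how such reads were counted is unstated in the sources used here.

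The type II partners of these genes were weak or not analysed here. Krt5 and Krt4, the usual partners of Krt14 and Krt13, were not analysed here. Krt6a and Krt6b, partners of Krt16 that the rule leaves out because of their letter, were both listed at 0 in MEFs and in iPSCs. Krt6a was listed at 0 on day 3 and stood at 0.566 FPKM on day 6, and Krt6b stood at 0.0525 and 0.431 FPKM. Krt16 was 9.31 times Krt6a and 12.2 times Krt6b on day 6.

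The sum of type I members was 5.02 FPKM in MEFs, 9.73 on day 3, 21.8 on day 6 and 287 in iPSCs. The sum of type II members was 13.9, 13.5, 11.4 and 119 FPKM. The ratio of type I to type II was therefore 0.361 in MEFs, 0.723 on day 3, 1.92 on day 6 and 2.40 in iPSCs. Up to day 6 the increase was in the type I sum, and the type II sum was lowest on day 6. These sums cover the members only, so the type II genes Krt4, Krt5, Krt6a and Krt6b are outside them. The ratio is therefore not the full balance of the types.

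Krt80 (ENSMUSG00000037185), a type II keratin of differentiating epithelia, was the only stratified member at 1 FPKM or more in MEFs. It was at 3.42 FPKM in MEFs, 4.81 on day 3, 3.73 on day 6 and 0.0808 in iPSCs. It was lower in iPSCs than on day 6 by 2.13 and lower than in MEFs by 2.03, and was not called in the 3 contrasts without iPSCs. Krt80 overlaps the noncoding genes Gm35853 and Mir1941 in RefSeq, and whether the counting used strand is unstated.

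The other 6 stratified members were low. Krt10, the type I keratin of the layers above the basal cells, ranged from 0.188 FPKM on day 6 to 0.351 in iPSCs. Its partner Krt1 was listed at 0 in MEFs and was at most 0.0388 FPKM, on day 6. Krt2, Krt15, Krt24 and Krt79 had highest values of 0.0145, 0.0707, 0.0141 and 0.0790 FPKM. Krt1, Krt2 and Krt10, keratins of the upper epidermal layers, thus did not reach 1 FPKM in any library, unlike Krt13, Krt14, Krt16 and Krt17.

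The windows of Krt13 and Krt14 are shown for the stratified keratins that were highest on day 6, with the same motifs in capitals. Krt13 has 2 windows in the table, and the one of the more upstream start is printed.
Krt13, GRCm38.p6, chr11:100121517-100121816, minus strand: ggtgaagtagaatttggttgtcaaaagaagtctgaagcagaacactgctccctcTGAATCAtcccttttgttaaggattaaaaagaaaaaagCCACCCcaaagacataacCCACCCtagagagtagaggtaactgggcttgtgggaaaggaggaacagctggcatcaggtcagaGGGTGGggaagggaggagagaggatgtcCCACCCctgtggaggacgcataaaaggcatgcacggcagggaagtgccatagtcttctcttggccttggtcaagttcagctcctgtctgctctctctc
Krt14, GRCm38.p6, chr11:100205981-100206280, minus strand: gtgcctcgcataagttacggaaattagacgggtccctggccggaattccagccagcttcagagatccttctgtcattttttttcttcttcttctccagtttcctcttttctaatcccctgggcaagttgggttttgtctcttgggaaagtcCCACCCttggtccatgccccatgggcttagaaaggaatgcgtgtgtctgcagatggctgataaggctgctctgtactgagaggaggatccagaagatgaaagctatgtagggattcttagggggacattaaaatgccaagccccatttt

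The printed Krt13 window held 1 match of TGANTCA and 4 of CCACCC, and the other Krt13 window held 2 of TGANTCA and no CCACCC. Both keratin windows with TGANTCA were thus those of Krt13. The Krt14 window held 1 match of CCACCC.

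Of the 6 keratins higher on day 6 than in MEFs, 5 lie on chromosome 11 and Krt8 lies on chromosome 15. RefSeq places 13 members on chromosome 11 and 12 on chromosome 15. In the RefSeq order of keratin genes on chromosome 11, Krt13, Krt15 and Krt19 follow each other, and Krt14, Krt16, Krt17 and Krt42 come after them, with Krt9 between the sets. All 5 members of chromosome 11 at 1 FPKM or more on day 6 were in this stretch. The stretch was named from these same values, so it is a description only, and an effect of position was not tested. Krt14, Krt16 and Krt17 can also share reads, as stated above. Krt15, between Krt13 and Krt19, was at 0.0447 FPKM on day 6 and Krt42, beside Krt17, at 0.0160. Krt9 was not analysed here.

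**Figure D4:**
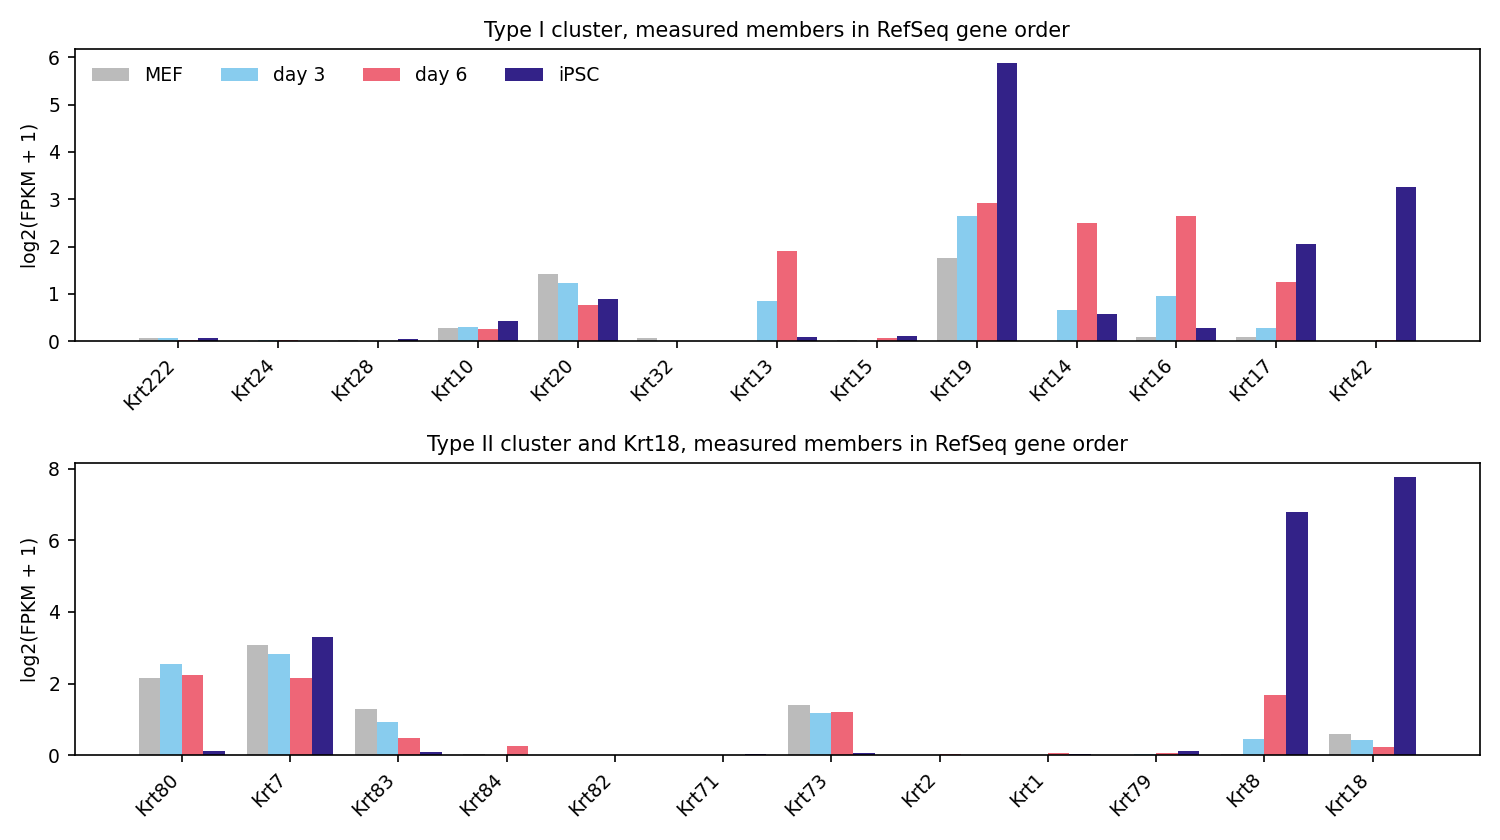
log2(FPKM + 1) (y) of the measured keratins in RefSeq gene order along chromosome 11 (top, type I) and chromosome 15 (bottom, type II and Krt18), with 1 bar per library. Day 6 bars of Krt13, Krt19, Krt14, Krt16 and Krt17 stand within 1 stretch at the right of the upper panel, and Krt8 and Krt18 are neighbours at the right end of the lower panel.

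Krt42, at the end of this stretch, was a keratin of the iPSC library. Krt42 (ENSMUSG00000053654), a type I keratin listed in RefSeq under the further names K17n and ecat6, was listed at 0 in MEFs and on day 3, and stood at 0.0160 FPKM on day 6 and 8.57 in iPSCs. The difference between iPSCs and day 6 was 3.24. Its level in iPSCs was close to that of Krt7 (8.83 FPKM) and above that of Krt17 (3.17 FPKM), the gene beside it. Its window is shown because it was the only member under 0.1 FPKM in the other 3 libraries and over 1 FPKM in iPSCs.
Krt42, GRCm38.p6, chr11:100269902-100270201, minus strand: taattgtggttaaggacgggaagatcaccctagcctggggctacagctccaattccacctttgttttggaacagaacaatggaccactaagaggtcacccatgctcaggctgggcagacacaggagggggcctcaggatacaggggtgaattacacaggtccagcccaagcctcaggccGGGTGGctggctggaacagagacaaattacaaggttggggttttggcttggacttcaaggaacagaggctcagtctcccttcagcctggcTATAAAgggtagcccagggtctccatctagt

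This window held 1 match of TATAAA, at bases 20 to 25 from the start, and 1 of CCACCC. The other unclassed member, Krt222, encodes a keratin-like protein and was between 0.0129 FPKM on day 6 and 0.0517 on day 3. It overlaps the noncoding gene Gm32385, as does Krt24.

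Of the root sheath keratins, which line the growing hair, 1 of 3 reached 1 FPKM. Type II Krt73 (ENSMUSG00000063661) was at 1.62 FPKM in MEFs, 1.25 on day 3, 1.30 on day 6 and 0.0395 in iPSCs. The 3 libraries before iPSCs were within 0.22 of each other on the log2 scale, and iPSCs were 1.15 below day 6 and 1.33 below MEFs. Krt28 and Krt71 had highest values of 0.0347 and 0.0152 FPKM, both in iPSCs, and were listed at 0 on day 3 and day 6.

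Of the keratins classed as hair by their deposited symbol, 1 of 4 reached 1 FPKM. Krt83 (now Krt87), a type II keratin, was at 1.42 FPKM in MEFs, 0.898 on day 3, 0.400 on day 6 and 0.0560 in iPSCs. Each library was below the one before it, and only the difference between iPSCs and MEFs passed the rule, at -1.20. Krt84, of tongue and nail, was between 0 in iPSCs and 0.187 FPKM on day 6. Krt32 was listed at 0 in all libraries but MEFs (0.0408 FPKM), and Krt82 in all but day 6 (0.00738 FPKM).

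The libraries differed in relative depth. A rough relative depth was read from rows under 0.06 FPKM in the MEF library and in the library compared, by the commonest ratio of their values. Relative to MEFs, the number of fragments came to 0.648 on day 3, 1.04 on day 6 and 1.02 in iPSCs. The same number of fragments was thus worth 1.54 times as much FPKM on day 3 as in MEFs. Krt24, at 0.00723 FPKM in MEFs and 0.0113 on day 3, had a ratio of 1.56 between these libraries. It is 1 of the rows used for the estimate, so its ratio is no separate check of it. The absolute depth is unknown, so no difference is read among the members under 0.1 FPKM.

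Cornified envelope and epidermal differentiation genes work beside keratins in stratified epithelia, and 3 of the 16 in the table were higher on day 6 than on day 3 by the rule, with 0 lower (0.301% and 0.262% of all rows). The median of the list was 0.40, and 9 of its members were at 1 FPKM or more in any library. The 3 were Slurp1, the envelope component gene Sprr1a, and Krtdap, a keratinocyte differentiation gene. Slurp1, a secreted protein of stratified epithelia, went from 12.2 FPKM on day 3 to 67.9 on day 6. The other 13 were not called, among them Cdsn with 54.0 and 40.9 FPKM and Sfn with 14.5 and 13.6. Krtdap was listed at 0 in MEFs and stood at 0.271 FPKM on day 3, 2.08 on day 6 and 2.45 in iPSCs. The late genes Ivl (involucrin) and Flg (filaggrin) were at most 0.0301 and 0.0412 FPKM. In iPSCs 1 member was higher and 4 lower than on day 6, against 14.8% and 16.9% of all rows. Nothing particular to the list is read from these counts. The higher one was Tgm1, the transglutaminase of the envelope, with 0.686 FPKM on day 6 and 7.68 in iPSCs.

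Keratinocyte surface and junction markers were mostly within the rule up to day 6, as were nearly all rows. Of 9 in the table, 0 were called on day 6 against day 3, where 0.301% of all rows were higher and 0.262% lower. Against MEFs 1 was higher on day 6 (0.508% of all rows), Itgb4, an integrin of hemidesmosomes. Itgb4 was at 0.421 FPKM in MEFs, 1.35 on day 3 and 3.28 on day 6. Cdh1 was at 0.0818, 0.431 and 1.14 FPKM, and its difference of 0.98 between day 6 and MEFs lay just under the rule. The list summed to 9.05 FPKM in MEFs, 12.8 on day 3, 18.2 on day 6 and 301 in iPSCs. Most of the iPSC sum came from Epcam (122 FPKM), Itga6 (102 FPKM) and Cdh1 (63.1 FPKM), which epithelia of many kinds express, while Col17a1, a hemidesmosome collagen of keratinocytes, was at 1.10 FPKM there. The keratinocyte desmogleins and desmocollins Dsg3 and Dsc3 were at most 0.0916 FPKM up to day 6, and both were listed at 0 in MEFs. Mesothelial markers, of a cell layer that has Krt8, Krt18 and Krt19, summed to 4.28, 10.9, 21.2 and 6.01 FPKM. Of 7 in the table, 1, Msln, was higher by the rule on day 3 and on day 6 than in MEFs (0.112% and 0.508% of all rows). Msln made up 20.04 FPKM of the day 6 sum. Upk1b was at 0.0425, 0.121, 0.688 and 0.201 FPKM, highest on day 6. The other 5 on day 6 were Upk3b at 0.265 FPKM, Bnc1 at 0.164, Wt1 at 0.0141, Lrrn4 at 0.0138 and Gpm6a, listed at 0. The part of such cells in the keratin values was not tested.

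Of 20 transcription factors of keratin genes in the table, 9 were higher and 1 lower in iPSCs than on day 6, with a median of 0.87 (14.8% and 16.9% of all rows). In the 3 contrasts without iPSCs 0 were called, where at most 0.508% of all rows were higher and 0.385% lower, so nothing particular to the list is read from that count. Trp63, the regulator of basal epidermal cells, was at 0.816 FPKM in MEFs, 0.713 on day 3, 1.05 on day 6 and 0.0140 in iPSCs, and was the lower one. Grhl2 and Ovol2, which support the epithelial state, were at most 0.0731 and 0.0188 FPKM up to day 6 and at 4.70 and 1.73 FPKM in iPSCs. Elf3, an epithelial ETS factor, was at 0.0442 FPKM on day 6 and 26.9 in iPSCs.

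Of 13 genes that anchor and link keratin filaments, Krt6a and Krt6b included, 0 were called in the 3 contrasts without iPSCs, where at most 0.508% of all rows were higher. In iPSCs 5 were higher and 2 lower than on day 6, against 14.8% and 16.9% of all rows, so the lower count was near the share over all rows. Dsp, desmoplakin, which ties keratins to desmosomes, was at 0.292 FPKM in MEFs, 1.08 on day 3, 1.38 on day 6 and 9.65 in iPSCs. The desmosomal plakophilin gene Pkp2 was at 5.61, 4.80, 3.24 and 32.5 FPKM. Pkp1, the plakophilin of stratified epithelia, was in contrast at 3.63, 5.05, 4.77 and 0.0488 FPKM, and the linker gene Plec at 33.4, 51.8, 50.9 and 11.96.

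Of the other 14 cytoplasmic intermediate filament genes, 0 were called before iPSCs, where at most 0.508% of all rows were higher and 0.385% lower. In iPSCs 5 were higher and 3 lower than on day 6, in a contrast where 14.8% of all rows were higher and 16.9% lower. The lower ones were Vim, the progenitor filament gene Nes and Iffo2. Those higher were Des, the desmin of muscle, with 1.38 FPKM on day 6 and 24.7 in iPSCs, Prph (0.157 and 10.5), Nefh, Nefl and Ina.

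Markers of early lineages that carry Krt8 and Krt18 were read in the iPSC library. Of 6 trophectoderm markers in the table, 5 were higher in iPSCs than on day 6, Krt7 among them, against 14.8% of all rows. Tfap2c was at 15.3 FPKM, Hand1 at 9.505, Eomes at 2.41 and Elf5, which was not called, at 0.143. Of 6 primitive endoderm markers 3 were higher, with Gata4 at 8.74 FPKM, Foxa2 at 2.42 and Sox7 at 1.80. The count of 1 lower marker was near the share over all rows (16.9%). The trophectoderm list, which includes Krt7, summed to 7.64 FPKM in MEFs, 6.23 on day 3, 3.51 on day 6 and 37.6 in iPSCs. The primitive endoderm list summed to 44.96, 49.3, 50.7 and 33.0 FPKM, and Dab2 was its strongest member in all libraries. Its sum was lowest in iPSCs because of Dab2 and Pdgfra. Between MEFs and iPSCs, Dab2 dropped from 35.1 to 10.7 FPKM and Pdgfra from 6.25 to 3.99. The remaining markers of this list, Gata4, Gata6, Foxa2 and Sox7, each had their highest value in iPSCs, so the sum does not describe them. The part of such cells in the iPSC values of Krt8, Krt18 and Krt19 was not tested.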

How the data were processed

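Expression was measured by RNA sequencing of ribosomal-RNA-depleted total RNA, per the labels' protocols, in 4 long RNA libraries. The authors deposited 1 table of FPKM values per gene and library, per the file headers. The tools HISAT2 and Cufflinks and the build mm9 stand, without version or role, in the submitters' processing notes. The gene models, any filters, the strand setting and any pooling are unstated there.

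Members and gene lists were chosen with earlier results of these data known. Named genes are the keratins at 1 FPKM or more in any library. Others are given by their highest value or range. In other lists, called genes and at most 4 of the strongest were to be named, and Ivl, Flg, Dsg3, Dsc3, Upk3b, Upk1b, Bnc1, Gpm6a, Col17a1, Elf5 and Tchh were added after their values were seen. Differences were computed on the log2(FPKM + 1) scale from the deposited FPKM with pandas 2.3.3. The rule was tested on simulated data only as a check of the code. How often it errs for weak genes was not tested. In a list, a symbol on several rows was represented by its highest row. Keratin classes follow textbook groups, and Krt42 and Krt222 were left unclassed. Classes were set by the deposited symbol, so Krt87 was counted as hair under its older name Krt83, although the fixed lists leave Krt87 unclassed. Promoter windows are from RefSeq (GRCm38.p6), matched by symbol, and RefSeq gene order is on the same assembly. Depth per library is not stated in the table.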

Additional observations from a re-analysis of the deposited data

How the results depend on the processing

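No call has a replicate check. No paired analysis was possible because every stage was a single library, so no replicate could be left out either. Of 94 counts under alternatives, 79 stayed within 1.5 times the main count, among them all counts under the upper quartile and median rescalings. Many of the 79 could not move, so their number does not measure how firm the calls are. A stricter setting cannot raise a count of 0. Dropping the minimum of 1 FPKM cannot change a call, because a difference of at least 1 already requires that level. The causes of the other 15 were not tested beyond their construction, since a larger pseudocount shrinks weak genes. With a pseudocount of 5, members higher on day 6 were 0 against day 3 and 1 against MEFs, and members lower in iPSCs were 0 against day 6 and 0 against MEFs. With a pseudocount of 0.1, 1 member was higher on day 3 than in MEFs and 3 were lower on day 6 than in MEFs. With a log2 difference of at least 2, members higher on day 6 were 0 against day 3 and 2 against MEFs, and members lower in iPSCs were 2 against day 6 and 1 against MEFs. With a minimum of 5 FPKM these 4 counts were 1, 2, 1 and 0, and 6 members reached that level in any library. Krt19 and Krt16 were the only members above 5 FPKM on day 6. Of 260 differences of single keratins, 198 moved by less than 1.5-fold. Their signs are no check of the calls, because a pseudocount cannot change the sign of a difference and the rescalings were small.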

Other observations

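Genes of the hair shaft and macrophage markers were also read. Of 3 hair shaft partner genes in the table, 0 were called in any of the 5 contrasts. At most 15.2% of all rows were higher and 18.0% lower there, so nothing particular to these genes is read from that count. S100a3, a calcium-binding protein of the hair cuticle, was at 0.552 FPKM in MEFs, 1.03 on day 3, 1.04 on day 6 and 0.0948 in iPSCs, and Tchh, trichohyalin of the inner root sheath, was at most 0.252 FPKM, in iPSCs. Of 6 macrophage markers, 0 were called in the 3 contrasts without iPSCs, where at most 0.508% of all rows were higher and 0.385% lower. In iPSCs 3 were lower than on day 6, against 16.9% of all rows. Corneodesmosin, encoded by Cdsn and known from the cornified layer, was at 48.2 FPKM in MEFs, 54.0 on day 3, 40.9 on day 6 and 0.434 in iPSCs, in libraries where the upper-layer keratins Krt1 and Krt10 were under 1 FPKM.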
